A study of Drosophila melanogaster with 2 samples.

Results

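The Bearded family is a group of small genes of Drosophila melanogaster that act in Notch signalling. The 6 genes Brd, BobA, Tom, Ocho, E(spl)m4-BFM and E(spl)malpha-BFM were taken as a family by name and picked out by their symbols, and all 6 were among the 13623 genes of the expression table. The choice of this family was made with earlier results of these data known, among them the low levels of Brd and BobA in neurons, so the counts below describe it and are not a blind test. Nuclear RNA was sequenced from 2 libraries, 1 of neurons and 1 of neural stem cells (NSCs). Nuclei were taken from embryo homogenates by INTACT, in which a tag on the nuclear envelope is bound by anti-FLAG beads. The neuron library came from Elav-Gal4;UAS-3xFLAG-blrp-mCherry-RanGap embryos of 12 to 14 h after egg laying, and the NSC library from embryos of 5 to 7 h with Sca-Gal4/cyo and the same UAS transgene. In both strains the tag was under the yeast activator GAL4. The drivers follow elav, a gene of neurons, and sca, a gene of proneural clusters and neural precursors. The collection and ageing times in the labels do not add up to the stated ages, and the labels describe cross-linked embryos where the study's methods describe RNA from embryos without crosslinking. Since each group held 1 library, nothing was replicated, no test could be made, and cell type, embryo age and driver cannot be told apart.

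Notch signalling decides which cells of a proneural cluster become neural precursors. The ubiquitin ligase Neuralized (neur) drives endocytosis of the ligand Delta (Dl) in the sending cell, which is needed for Delta to activate Notch in its neighbour. Bearded proteins bind Neuralized and hold this step back. The genes lie in 2 clusters. Brd, BobA, Tom and Ocho form the Bearded complex on arm 3L, and E(spl)m4-BFM and E(spl)malpha-BFM lie on arm 3R in the Enhancer of split complex, among the basic helix-loop-helix (bHLH) repressor genes that activated Notch switches on.

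Levels are FPKM, fragments mapped to a gene, scaled to its length in kilobases and to the depth of the library. The values summed to 669144 FPKM in the neuron library and 805334 FPKM in the NSC library. The steps of low FPKM values put the depth at about 69.4 M mapped fragments for neurons and 65.4 M for NSCs (M, 1000000). Each member then rested on an estimated 214 to 34066 fragments. The 95% intervals below are exact Poisson or binomial intervals on such estimates and cover counting error only. Of 15 neuron markers, 13 were at least 2-fold higher in the neuron library, among them fne with 276 FPKM in neurons and 10.3 FPKM in NSCs. The neuroblast markers separated the libraries little, with 3 of 14 at least 2-fold lower in neurons and 2 at least 2-fold higher. These shares were 21.4% and 14.3%, compared with 16.6% and 26.9% of all genes that reached 1 FPKM in at least 1 library. Both higher neuroblast markers, nab and Sox21b, were below 1 FPKM in NSCs (0.238 and 0.867). When 1 FPKM was required in both libraries, 0 higher ones remained. The driver genes measured 77.0 FPKM in neurons and 46.5 FPKM in NSCs for elav, and 4.72 FPKM in neurons and 63.96 FPKM in NSCs for sca. Thus elav RNA was also present in the NSC library.

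All 6 Bearded genes were lower in the neuron library. Their summed level was 299.97 FPKM in neurons and 3395 FPKM in NSCs, an 11.3-fold difference. Each of the 6 was at least 2-fold lower, compared with 16.6% of the 10158 genes that reached 1 FPKM in at least 1 library. All 6 members passed that filter. At least 4-fold lower were 5 of the 6 members and 3.46% of all genes, and at least 8-fold lower were 3 of the 6 and 0.492% of all genes. The change of a gene is given as log2((neuron FPKM + 1)/(NSC FPKM + 1)), in which the added 1 pulls low genes toward 0. The median of the 6 members was -3.32 on this scale, and that of all 10158 genes was 0.14. In these bulk libraries, fewer cells of a type and less RNA per cell cannot be told apart.

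**Figure D1:**
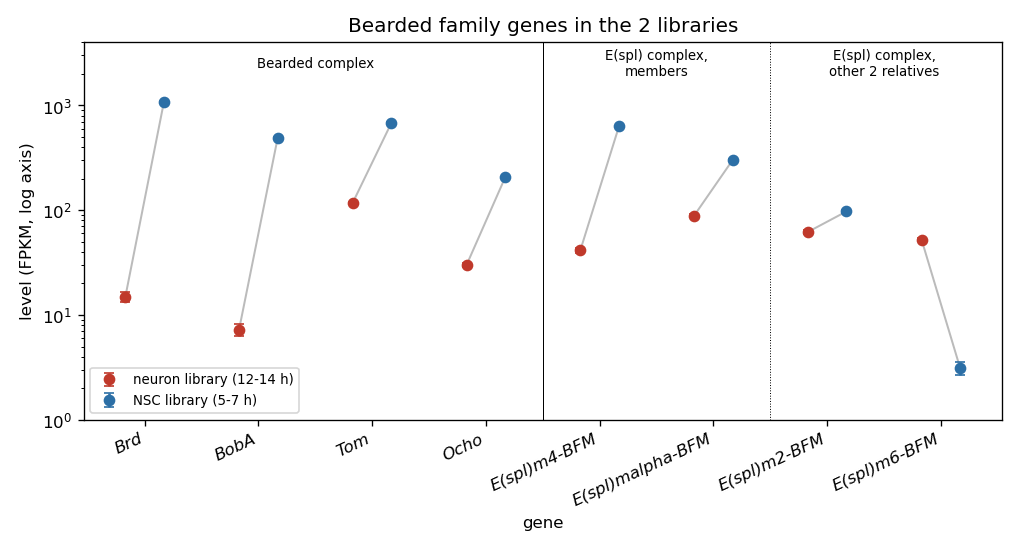
FPKM (log axis) of the 6 Bearded family members and of their relatives E(spl)m2-BFM and E(spl)m6-BFM, with the neuron library (red) left of the NSC library (blue) for each gene. Bars are 95% counting intervals from estimated fragments. The 6 members lie between 7.22 and 118 FPKM in neurons and between 206 and 1081 FPKM in NSCs. These are ranges over different genes, not over replicates. The relatives lie at 62.0 and 97.4 FPKM (E(spl)m2-BFM) and at 52.4 and 3.09 FPKM (E(spl)m6-BFM), neurons first.

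Brd, the founding gene of the family, differed most. It had 14.8 FPKM (95% counting interval 13.2 to 16.4) in the neuron library and 1081 FPKM (1067 to 1095) in the NSC library. The fold was 73.2 (65.7 to 81.7) and the log2 change -6.10, the third lowest among the 10158 genes. Within the NSC library Brd ranked 114th of all 13623 genes by level, and within the neuron library 5435th.

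BobA followed closely. Its level was 7.22 FPKM (6.28 to 8.25) in neurons and 491 FPKM (482 to 499) in NSCs, a 68.0-fold difference (59.4 to 78.2) and a log2 change of -5.90. Bob genes have been described as near-identical copies, and only uniquely mapped reads were used, so the levels of BobA are uncertain. BobB and BobC had no row in the table. Brd and BobA made up 7.33% of the summed level of the 6 members in neurons and 46.3% in NSCs.

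The other genes of the Bearded complex showed smaller differences. Tom had 118 FPKM (115.2 to 121) in neurons and 683 FPKM (676 to 690) in NSCs, 5.78-fold lower in neurons (5.63 to 5.94) with a log2 change of -2.52. Tom remained in the upper part of the neuron library, at percentile 94.7 of all genes, compared with percentile 98.9 in NSCs. Ocho was the lowest member in NSCs, with 29.97 FPKM (28.7 to 31.3) in neurons and 206 FPKM (203 to 210) in NSCs. Its fold was 6.88 (6.57 to 7.21) and its log2 change -2.74. Genes next to each other in this complex therefore differed in size of change by more than their counting intervals, since Tom lies between BobA and Brd in the annotated order.

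E(spl)m4-BFM and E(spl)malpha-BFM, which are expressed in proneural clusters under Notch control, differed from each other as well. E(spl)m4-BFM had 41.4 FPKM (39.4 to 43.4) in neurons and 632 FPKM (624 to 640) in NSCs, 15.3-fold lower in neurons (14.5 to 16.1) with a log2 change of -3.90. This was the 20th lowest change of all genes compared. E(spl)malpha-BFM had 88.5 FPKM (85.4 to 91.8) in neurons and 302 FPKM (296 to 308) in NSCs, 3.41-fold lower in neurons (3.28 to 3.56) with a log2 change of -1.76. It had the smallest change of the 6 and was the sole member under 4-fold.

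The order of the members by level was not the same in the libraries. From high to low it was Tom, E(spl)malpha-BFM, E(spl)m4-BFM, Ocho, Brd and BobA in neurons, and Brd, Tom, E(spl)m4-BFM, BobA, E(spl)malpha-BFM and Ocho in NSCs. The closest neighbours were Tom and E(spl)m4-BFM in NSCs, which differed 1.08-fold. Of the 10 pairs of neighbours in these orders, 0 had overlapping counting intervals, although without replicates it is unknown whether such small differences exceed the variation between preparations. Tom and E(spl)malpha-BFM held 68.9% of the summed level in neurons and 29.0% in NSCs. The highest member stood 16.4-fold above the lowest in neurons and 5.24-fold in NSCs. The steps of low FPKM values were sharper with a length shortened by 200 bp than with full length. Such a shortening gives short transcripts a higher FPKM than full length would. Dividing by full exonic length left both orders as they were.

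**Figure D2:**
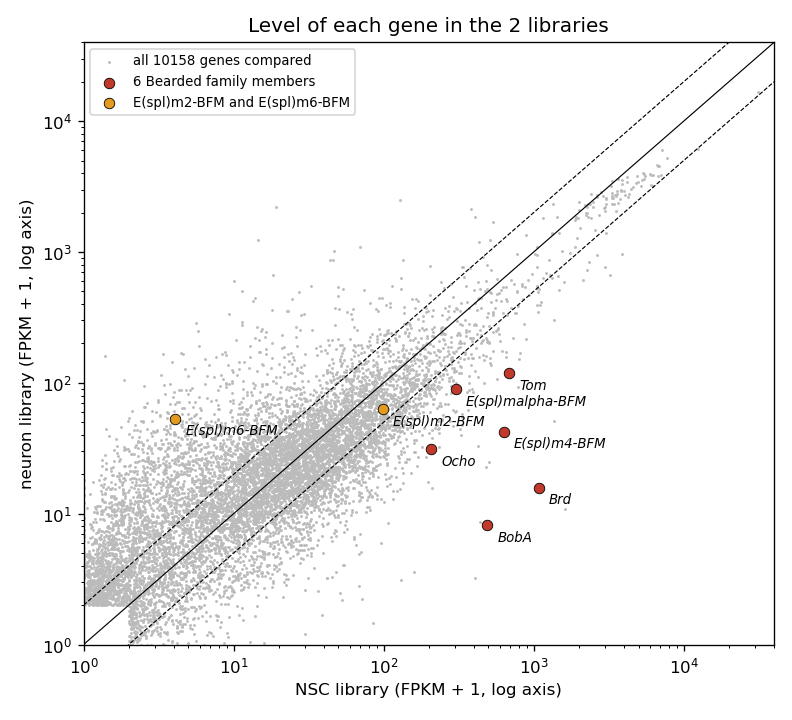
Each of the 10158 genes compared, as FPKM + 1 on log axes, with the neuron library upward and the NSC library to the right. The solid line marks equal levels and the dashed lines 2-fold differences. The 6 members (red) lie below the lower dashed line, with Brd and BobA farthest from it, whereas E(spl)m6-BFM (orange) lies above the upper one.

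To ask whether the whole family differed in the same direction, E(spl)m2-BFM and E(spl)m6-BFM, the other family genes in the table, were examined. They did not follow the 6 members. E(spl)m2-BFM had 62.0 FPKM (59.9 to 64.2) in neurons and 97.4 FPKM (94.7 to 100.2) in NSCs, 1.57-fold lower in neurons (1.503 to 1.64) and within 2-fold at a log2 change of -0.64. E(spl)m6-BFM went the other way. It had 52.4 FPKM (50.6 to 54.2) in neurons and 3.09 FPKM (2.67 to 3.56) in NSCs, 16.9-fold higher in neurons (14.6 to 19.7) with a log2 change of 3.71. Of the 8 family genes in the table, 6 were therefore at least 2-fold lower in neurons, 1 was at least 2-fold higher and 1 stayed within 2-fold. At least 2-fold higher were 26.9% of all genes.

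All 8 family genes have 1 exon in the Ensembl annotation, and 0 of the 8 overlaps another annotated gene. The exonic length of the 6 members ran from 532 bp for Brd to 1193 bp for Ocho. These features were then set beside the change. Among genes with 1 exon that passed the filter, 26.6% were at least 2-fold lower in neurons, and among those no longer than Ocho 31.7%. Of the 455 genes at or above 200 FPKM in NSCs, a level that all 6 members reached, 39.1% passed 2-fold in the same direction. The part of these features in the differences of the members was not tested.

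The genes between and around the members of each cluster were then compared in their annotated order. In the Bearded complex the difference extended to CG13465, an unnamed gene with 1 exon beside BobA. It had 7.67 FPKM in neurons and 439 FPKM in NSCs, 57.2-fold lower in neurons, with a log2 change of -5.66 that ranked sixth of all genes. On its other side, DCX-EMAP was below 1 FPKM in both libraries (0.846 in neurons, 0.858 in NSCs) and CG34245 was listed at 0 in both. Beyond Ocho, CG3349 had 0.559 FPKM in neurons and 1.92 FPKM in NSCs (log2 change -0.90), CG5114 had 20.4 and 30.9 FPKM (-0.57), and the transporter gene mnd had 47.6 and 25.9 FPKM (0.86), in the same order of libraries. None of these 3 genes reached 2-fold on the log2(FPKM + 1) scale.

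In the Enhancer of split complex neighbours differed in opposite directions. Of 12 genes there (7 bHLH genes, 4 Bearded family genes and Kaz-m1), 7 were at least 2-fold lower in neurons, 3 were at least 2-fold higher and 2 stayed within 2-fold. The lower share was 58.3%, compared with 16.6% of all genes. The higher share of 25% was near the 26.9% of all genes. E(spl)malpha-BFM lies beside E(spl)mbeta-HLH, which had 89.6 FPKM in neurons and 40.03 FPKM in NSCs (1.14), and beside Kaz-m1, named for its Kazal-type protease inhibitor domain, which had 59.8 FPKM in neurons and 30.8 FPKM in NSCs (0.94). E(spl)m4-BFM lies beside E(spl)m3-HLH, with 47.5 FPKM in neurons and 22.8 FPKM in NSCs (1.02), and E(spl)m5-HLH, with 16.6 FPKM in neurons and 196 FPKM in NSCs (-3.49). E(spl)m6-BFM, the family gene higher in neurons, lies between E(spl)m5-HLH and E(spl)m7-HLH, which had 107 FPKM in neurons and 222 FPKM in NSCs (-1.05). Under scaling to an equal library sum (TPM scaling), Kaz-m1 passed 2-fold at 1.21 and E(spl)m7-HLH no longer reached it, at -0.78.

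**Figure D3:**
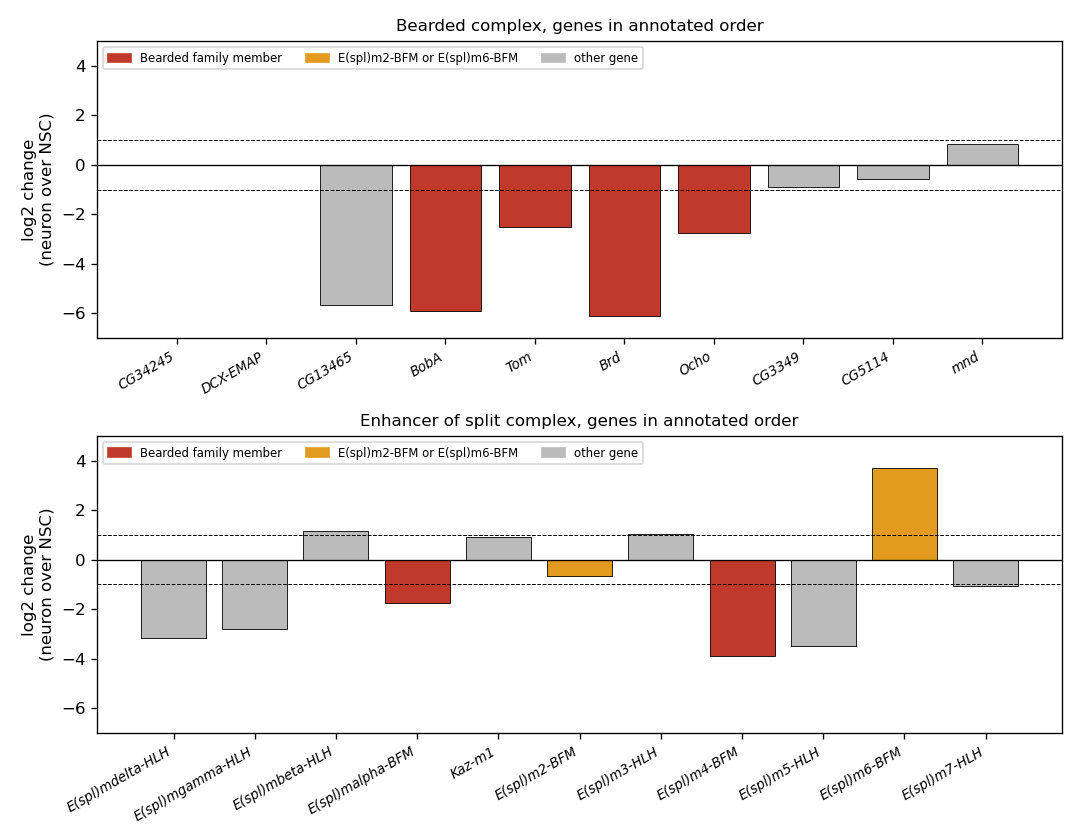
Log2 change (neuron over NSC) of the members of each cluster, the genes between them and up to 3 protein-coding genes on either side, in annotated order. Members are in red and E(spl)m2-BFM and E(spl)m6-BFM in orange. In the Enhancer of split panel the genes on either side also belong to the complex, and E(spl)m8-HLH is not shown. Dashed lines mark 2-fold. Log2 changes are below -2 from CG13465 to Ocho in the Bearded complex, whereas they run from -3.90 to 3.71 in the Enhancer of split complex; CG34245 and DCX-EMAP show no bar because they are at 0 and -0.01.

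The pathway in which the Bearded proteins act was compared through lists of its genes. The counts stand beside 16.6% of all genes at least 2-fold lower in neurons and 26.9% at least 2-fold higher. The E(spl) bHLH genes, which repress neural fate in cells with active Notch, had 5 of 7 genes at least 2-fold lower and 2 at least 2-fold higher in neurons, with a median log2 change of -1.56. The lowest was E(spl)m5-HLH at -3.49, followed by E(spl)mdelta-HLH with 12.0 FPKM in neurons and 114.6 FPKM in NSCs (-3.16) and E(spl)mgamma-HLH with 46.3 FPKM in neurons and 330 FPKM in NSCs (-2.81). With a pseudocount of 5 in place of 1, E(spl)m3-HLH had a log2 change of 0.91, which left 1 higher gene.

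Genes of the step that Bearded proteins inhibit differed less between the libraries than the Bearded genes. The gene for their target, neur, had 53.4 FPKM in neurons and 141 FPKM in NSCs (-1.39). It was the sole gene of the 11 of Neuralized and ligand endocytosis to reach 2-fold as deposited. In the other 10 the log2 change ran from -0.94 for spdo, a regulator of Notch trafficking, to 0.76 for alpha-Adaptin, an endocytic adaptor subunit. The ligase gene mib1, which acts on the same ligands, had 18.6 FPKM in neurons and 17.6 FPKM in NSCs (0.08), and the epsin gene lqf had 79.95 FPKM in neurons and 55.2 FPKM in NSCs (0.53). The median of this list was 0.24, near the 0.14 of all genes. Under TPM scaling alpha-Adaptin passed 2-fold at 1.03.

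Among the receptor, its ligands and nuclear partners, 2 of 8 genes were at least 2-fold lower and 1 at least 2-fold higher in neurons, with a median of -0.81. The ligands differed in direction. Dl had 35.5 FPKM in neurons and 158 FPKM in NSCs (-2.12), whereas Ser, the other ligand gene, had 20.2 FPKM in neurons and 1.498 FPKM in NSCs (3.08). N, the receptor gene, had 40.1 FPKM in neurons and 67.9 FPKM in NSCs (-0.74) and did not reach 2-fold. The corepressor gene gro had 97.6 FPKM in neurons and 198 FPKM in NSCs (-1.01), and it no longer reached 2-fold with a pseudocount of 5 (-0.98) or TPM scaling (-0.75). Of 15 genes of Notch processing and modulation, 4 were at least 2-fold lower and 2 at least 2-fold higher, with a median of -0.34. The lower shares of the 2 lists were 25% and 26.7%, compared with 16.6% of all genes. The higher shares were 12.5% and 13.3%, compared with 26.9%. With so few genes these counts are not read as a result about the pathway. The lower genes of Notch processing and modulation included sca (-3.51), the gene of the NSC driver, and O-fut1 (-1.04). With a pseudocount of 5 (-0.95) or TPM scaling (-0.79), O-fut1 no longer reached 2-fold. In this list pen-2, of the gamma-secretase that cleaves Notch, had 19.6 FPKM in neurons and 70.8 FPKM in NSCs (-1.80), and fng, which modifies Notch with sugar, had 39.96 FPKM in neurons and 3.05 FPKM in NSCs (3.34).

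The proneural genes, bHLH activators that give cells the competence to become neural precursors, had a median log2 change of -2.48, which moved to -1.37 with a pseudocount of 5 and to -3.91 with one of 0.1. Of 8 genes, 5 were at least 2-fold lower in neurons and 0 higher, and 3 were lower when 1 FPKM was required in both libraries. The achaete-scute gene l(1)sc had 2.11 FPKM in neurons and 129.9 FPKM in NSCs (-5.40), ac had 1.49 FPKM in neurons and 49.9 FPKM in NSCs (-4.35), and sc had 1.301 FPKM in neurons and 20.2 FPKM in NSCs (-3.21). Their partner da had 46.8 FPKM in neurons and 71.7 FPKM in NSCs (-0.61). The lists hold different kinds of genes and were not tested against each other.

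**Figure D4:**
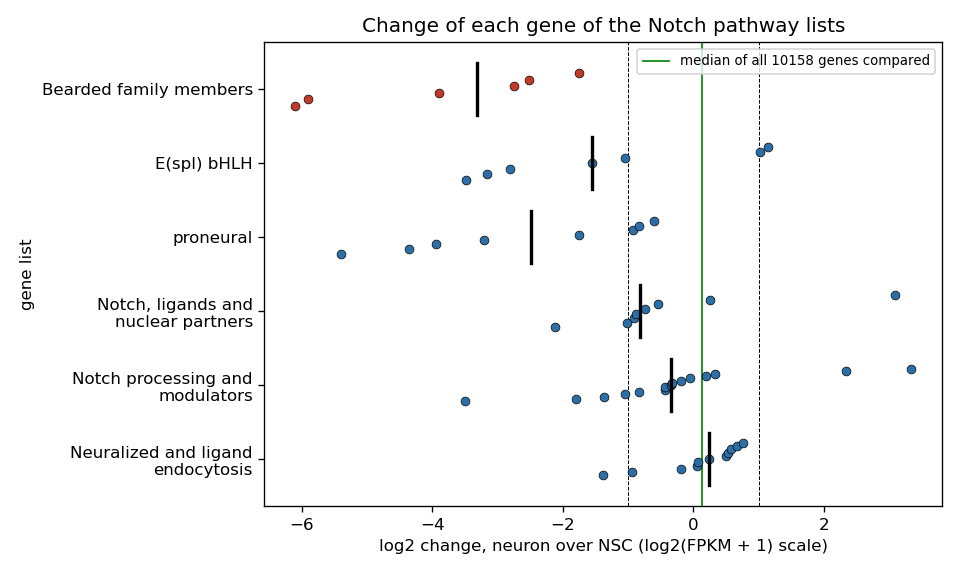
Log2 change (neuron over NSC) of each gene in 6 lists, one point per gene, with black bars at the list medians, dashed lines at 2-fold and a green line at the median of all 10158 genes (0.14). The Bearded members (red) lie between -6.10 and -1.76, and the list of Neuralized and ligand endocytosis has its median at 0.24.

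The libraries also differed in markers of other cell types. Markers of mesoderm and muscle summed to 4250 FPKM in neurons and 959 FPKM in NSCs, and those of trachea to 1952 FPKM in neurons and 149 FPKM in NSCs. Much of each sum came from few genes, such as Act57B with 2131 FPKM and Osi6 with 869.5 FPKM in neurons. Muscle markers were at least 2-fold higher in neurons for 6 of 10 genes and lower for 3, among them twi (-1.09) and tin (-2.30). Tracheal markers were higher for 4 of 6 and lower for 1, btl (-1.38), while trh stayed within 2-fold (0.60). Of the mesectoderm and midline markers, 0 of 5 reached 2-fold as deposited and 1 was higher under TPM scaling, and the defining gene sim had 3.53 FPKM in neurons and 5.53 FPKM in NSCs. Glial markers were higher for 3 of 7 genes, and hemocyte and fat body markers for 5 of the 6 that passed the filter. Epidermal markers were higher for 4 of 7 with 1 lower, and gut markers for 1 of 5. Of all genes, 26.9% were at least 2-fold higher and 16.6% lower. Epidermal markers summed to 227 FPKM in neurons and 244 FPKM in NSCs, and gut markers to 119 and 141 FPKM. The gut list had a median log2 change of -0.77. The other lists of this paragraph summed higher in neurons. Under TPM scaling 5 glial and 2 gut markers were higher, and with a pseudocount of 5 the epidermal count was 2. The number of higher genes among all genes moved too, from 2735 as deposited to 3430 under TPM scaling and 1631 with a pseudocount of 5. The part of these cell types in the levels of the Bearded genes was not tested.

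Finally, genes with the levels most like those of the Bearded members were sought, by the distance of log2(FPKM + 1) from the median of the 6 in both libraries. With only 2 libraries this is a likeness of levels and not of a pattern across samples. The 5 nearest genes were His1:CG33834 (31.9 FPKM in neurons and 422 FPKM in NSCs), link (23.9 and 505 FPKM), His2B:CG33874 (21.8 and 478 FPKM), msb1l (38.9 and 329 FPKM) and E(spl)mgamma-HLH (46.3 and 330 FPKM), in the same order of libraries. The histone genes belong to a family of near-identical copies and their values are uncertain.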

How the data were processed

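The authors aligned nuclear RNA reads (Illumina HiSeq; Bowtie and TopHat 1.3.1; FlyBase release 5.43 transcripts, dm3) and gave the uniquely mapped ones to Cuffdiff 1.3.0. The deposited values are its FPKM, 1 per gene and library. Read length, strand and gene filter are not given in the sources used here. The deposited table repeated its header before each of 13623 gene rows. These lines were removed, and the remaining values were checked to be numbers of 0 or more that were not all whole.

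Groups came from the sample titles. No count model fits FPKM, and with 1 library per group no p-value was computed. Genes with at least 1 FPKM in either library were compared after adding a pseudocount of 1, and a log2 change of 1 in size was taken as 2-fold. Depth was estimated from the periodicity of FPKM times exonic length less 200 bp (strength on a scale of 0 to 1: 0.641 in neurons and 0.608 in NSCs, against 0.134 and 0.126 with full length). The estimate was also run on simulated data. Those data were made with the same lengths less 200 bp, so they could not test these settings. Lengths, exons and gene order came from Ensembl release 115 (BDGP6), another assembly than the authors', so no coordinates or sequences are given. Of the symbols, 11035 matched it directly and 2410 through RefSeq synonyms. The members and the 15 gene lists were chosen with earlier results of these data known. Named were the members, their relatives, genes of the pathway lists, up to 3 annotated neighbours on each side, the 5 nearest genes by level, the driver genes and up to 3 markers a list. Alternatives were pseudocounts of 0.1, 5 and none, TPM and median scaling, other filters, and leaving out BobA. Python 3.11.15, pandas 2.3.3, numpy 2.4.6 and scipy 1.17.1 were used.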

Additional observations from a re-analysis of the deposited data

How the results depend on the processing

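The log2 change of each member kept its direction and stayed past 2-fold in all 48 combinations of member and alternative run. For the other filters this was fixed in advance, since each member passed them and its log2 change could not move. It ran from -6.19 to -5.78 for Brd, -6.09 to -5.34 for BobA, -2.53 to -2.26 for Tom, -2.78 to -2.49 for Ocho, -3.93 to -3.64 for E(spl)m4-BFM and -1.77 to -1.50 for E(spl)malpha-BFM. The log2 change of E(spl)m6-BFM ran from 2.83 to 4.08. Leaving out BobA and using no pseudocount were chosen after seeing the data; without BobA, 5 of 5 members were at least 2-fold lower and the median was -2.74. Median scaling shifted the log2 ratio of plain FPKM by only 0.0034. TPM scaling shifted the log2 ratio of plain FPKM, with no pseudocount, by 0.27 for every gene. With the pseudocount, changes moved by unequal amounts, and those of ato (-4.22 against -3.95) and amos (-1.94 against -1.76) were lower. It gave 3430 genes higher and 1195 lower, with 74.2% of changed genes higher, against 2735, 1684 and 61.9% as deposited. A pseudocount of 5 gave 1631 genes higher. It left 1 higher E(spl) bHLH gene and 1 lower gene among receptor, ligands and nuclear partners, where TPM scaling also left 1, and TPM scaling gave 1 higher gene of Neuralized and ligand endocytosis. Requiring 1 FPKM in both libraries left 3 lower proneural genes, since fewer genes were tested. Under TPM scaling, aux (0.065), Su(dx) (0.070) and Nedd4 (0.21) turned from just below to just above 0. Counting error is smallest for the high members and largest for BobA in neurons, and variation between preparations was not measured. No paired analysis was possible because each group had 1 library.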
